A study of Mus musculus with 12 samples.

Results

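The features described are the probe sets of an Affymetrix mouse gene array that carry several gene symbols at once. A probe set is the group of short probes whose brightness is summarised into 1 value for a gene, and it was taken as shared when its annotation joined at least 2 different symbols. Of 28815 probe sets, 2478 carried several symbols, 22700 carried 1 and 3637 carried none. Probe sets with a mean log2 signal over the 12 arrays under the 20th percentile of all probe sets were left out, which removed 567 shared probe sets (22.9%, against 16.2% of those with a single symbol). The remaining 1911 were collapsed to 1319 distinct symbol strings by averaging log2 values of identical strings. These shared features were set against 17626 single-symbol genes in the same fit of 18945 features.

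The arrays measured total RNA of mouse embryonic stem cells (ESC), cultured cells that can give rise to the tissues of the embryo. One line, Bmpr1a-/-, lacks the BMP receptor type 1A and carries a green fluorescent protein (GFP) mark, and the other is wild type (WT) and unmarked. The lines were grown for 3 days in N2B27, a defined medium, either mixed in equal parts and then separated by cell sorting on GFP, or each on its own, to measure expression during cell competition. The 4 groups of 3 arrays were mixed Bmpr1a-/-, separate Bmpr1a-/-, mixed WT and separate WT cells. The sources used here give neither the strain of the lines nor the number of clones, nor whether the separately grown cells were sorted. Since each genotype is 1 line, it cannot be told apart from the line and its GFP mark in any array. The file headers call the 3 numbered arrays of a group experiments, but do not say whether they came from separate cultures. The p-values therefore measure the spread between these samples, which may be technical.

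Several gene families of the mouse exist as tandem arrays of near-identical copies, and many highly expressed genes also have processed pseudogenes, copies of their mRNA inserted elsewhere in the genome. Probes that match every copy cannot say which copy made the RNA. Among the tandem families are genes such as Zscan4, Obox, Tdpoz and Usp17l that are known for expression around zygotic genome activation in the 2-cell embryo. ESC cultures are known to hold a small and changing number of cells that switch on such genes, with Dux as an upstream activator.

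The promoters of 2 sets of copies are shown to let the copies behind 1 name string be compared, and they belong to features with large differences below. The symbols Zscan4f, Zscan4d and Gm397 share 1 string, and Gm397 is now called Zscan4c. Their RefSeq promoters (assembly GRCm38.p6, 250 bases before to 50 bases after the transcript start, read 5′ to 3′ on the gene's strand) are printed with the run of 55 bases that all 3 hold in capitals.
Zscan4c, chr7:11005495-11005794, + strand: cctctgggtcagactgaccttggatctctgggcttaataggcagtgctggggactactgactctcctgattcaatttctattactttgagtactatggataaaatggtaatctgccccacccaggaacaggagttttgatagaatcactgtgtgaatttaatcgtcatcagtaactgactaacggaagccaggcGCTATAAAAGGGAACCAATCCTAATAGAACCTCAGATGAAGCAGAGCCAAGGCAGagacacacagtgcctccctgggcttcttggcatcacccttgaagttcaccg
Zscan4d, chr7:11166099-11166398, - strand: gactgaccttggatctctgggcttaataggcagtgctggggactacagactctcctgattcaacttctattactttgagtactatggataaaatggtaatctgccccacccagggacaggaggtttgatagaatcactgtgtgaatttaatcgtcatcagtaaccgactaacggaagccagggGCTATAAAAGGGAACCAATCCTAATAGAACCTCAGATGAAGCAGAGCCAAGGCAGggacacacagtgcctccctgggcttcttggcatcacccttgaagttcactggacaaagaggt
Zscan4f, chr7:11397665-11397964, + strand: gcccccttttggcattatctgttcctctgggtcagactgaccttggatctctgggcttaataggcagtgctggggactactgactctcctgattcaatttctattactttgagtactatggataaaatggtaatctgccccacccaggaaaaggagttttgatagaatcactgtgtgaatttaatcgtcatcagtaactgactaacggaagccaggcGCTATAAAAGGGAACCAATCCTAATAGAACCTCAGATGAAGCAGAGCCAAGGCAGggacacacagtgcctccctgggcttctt
At the best ungapped shift, Zscan4c and Zscan4d were identical at 97.2% of 289 bases, Zscan4c and Zscan4f at 99.3% of 277, and Zscan4d and Zscan4f at 97.4% of 266. The capitals hold the letters TATAAA, which begin 54, 65 and 31 bases before the annotated starts of Zscan4c, Zscan4d and Zscan4f. TATAAA, searched on both strands, occurred in 4473 of 32851 RefSeq promoters of this length (13.6%).

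The symbols LOC100042776 (now Gm4027) and BB287469 share another string. Their promoters are printed in the same way, with the 231 bases that both hold in capitals.
Gm4027, chr12:87618659-87618958, + strand: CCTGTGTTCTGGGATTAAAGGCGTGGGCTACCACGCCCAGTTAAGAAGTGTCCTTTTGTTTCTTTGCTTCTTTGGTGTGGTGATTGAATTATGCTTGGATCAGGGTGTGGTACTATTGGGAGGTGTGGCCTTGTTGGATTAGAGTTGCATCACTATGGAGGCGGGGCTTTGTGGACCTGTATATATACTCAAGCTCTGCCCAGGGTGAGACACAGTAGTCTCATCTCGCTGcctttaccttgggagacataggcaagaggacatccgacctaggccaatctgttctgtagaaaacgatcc
BB287469, chr12:87816327-87816626, + strand: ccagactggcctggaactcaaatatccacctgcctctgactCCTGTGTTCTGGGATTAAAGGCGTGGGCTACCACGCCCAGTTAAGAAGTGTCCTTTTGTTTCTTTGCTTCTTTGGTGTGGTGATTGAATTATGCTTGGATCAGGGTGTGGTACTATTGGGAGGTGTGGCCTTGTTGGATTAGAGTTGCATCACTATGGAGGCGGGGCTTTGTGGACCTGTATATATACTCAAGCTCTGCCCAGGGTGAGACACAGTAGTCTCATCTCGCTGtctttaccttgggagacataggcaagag
These promoters were identical at 99.6% of 259 bases and held no TATAAA in this window. A shared probe set did not always go with alike promoters: Xlr5a and Xlr5b were identical over 255 bases (100%), while Xlr5c matched Xlr5a at 34.9% and Xlr5b at 37.4% of the bases compared. Of all pairs of genes within a string that had promoters, at least 90% identity was found in 73 of 630 pairs among paralogs, 14 of 70 among other named genes, 42 of 195 among named genes joined to predicted ones and 59 of 132 among predicted genes only.

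The strings fell into 4 main kinds. The most frequent, 581 strings (44.0%) from 954 probe sets, joined 1 named gene to predicted genes (symbols such as LOC, EG or Gm numbers), and their located members lay on 1 chromosome in only 95 of 281 strings (33.8%). Predicted genes alone made up 333 strings (25.2%), named paralogs with a common name stem or family 264 (20%) and named genes with unrelated names 137 (10.4%). Their located genes lay on 1 chromosome in 106 of 138, 189 of 247 and 108 of 126 strings, in the order named. The other 4 strings were of small RNAs. Of 2742 different symbols, 1865 matched a gene of the RefSeq table for GRCm38.p6. Of 1547 predicted symbols, 720 matched, 357 of them to a pseudogene and 324 to a protein-coding gene. The strings are not independent of each other, since those that share a symbol form 944 linked groups, the largest of 31 strings.

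Most strings (816) held 2 symbols and the longest held 27. A single probe set stood behind 1064 strings, and 255 had several, up to 32 for the predicted pair LOC100043775/LOC100043821. Across those 255 strings, the probe sets of 1 string spanned a median of 0.16 on the log2 scale in mean level, with a 90th percentile of 1.09. Their log2 change between mixed Bmpr1a-/- and mixed WT cells spanned a median of 0.03, with a 90th percentile of 0.14. Probe sets of 1 string thus differed more in level than in their change. The filter lay at a signal of 25.3 (linear scale). The strings just inside it were Igkv1-117/LOC100046350 at 25.4 and Tmem207/LOC100046874 at 25.4, and those just outside were Olfr1335/Olfr1331/Olfr1333 and A630038E17Rik/A630098A13Rik, both at 25.3.

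The 12 arrays had median signals between 51.6 and 54.3, and any pair of them correlated at 0.980 to 0.998 across features. The probe set of Bmpr1a itself had signals of 381, 362.5 and 365.3 in mixed Bmpr1a-/- cells and 414.6, 462.1 and 424.5 in separate Bmpr1a-/- cells, against 505.2, 555.1 and 512.2 in mixed WT and 525.1, 587.8 and 534.5 in separate WT cells. It was lower in the Bmpr1a-/- cells but not near the filter, and the sources used here do not say how its probes lie relative to the deletion. The summed signal of 9 ESC markers was 8059 to 8419 (mixed) and 8778 to 9657 (separate) in the Bmpr1a-/- line, against 6009 to 6685 (mixed) and 5327 to 6410 (separate) in the WT line. The summed signal of 5 trophoblast markers was 323.7 to 414.1 (mixed) and 295.7 to 335 (separate) in the Bmpr1a-/- line, against 253.6 to 254.6 (mixed) and 245 to 270.2 (separate) in the WT line. The 5 of 7 fibroblast markers that were measured summed to 402.9 to 423.2 (mixed) and 335.2 to 428.8 (separate) in the Bmpr1a-/- line, against 454.9 to 495.1 (mixed) and 542 to 559.1 (separate) in the WT line. The summed signal of 5 neural markers was 740.3 to 792.5 (mixed) and 818.5 to 867.9 (separate) in the Bmpr1a-/- line, against 872.8 to 1098 (mixed) and 831.3 to 1049 (separate) in the WT line. That of 6 markers of extraembryonic endoderm was 254.6 to 283.4 (mixed) and 260.9 to 281.2 (separate) in the Bmpr1a-/- line, against 274 to 307.4 (mixed) and 286.7 to 337 (separate) in the WT line. The part of other cell types in the results below was not tested.

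Between mixed Bmpr1a-/- and mixed WT cells, the shared features that differed most were higher in Bmpr1a-/- cells and belonged to families of the 2-cell embryo, to X-linked Xlr genes and to groups of predicted genes, together with a string of Kitl and a predicted gene. Of the 1319 shared features, 147 were higher and 69 were lower in Bmpr1a-/- cells at an adjusted p under 0.05 (16.4% of them, against 16.4% of all features tested). By direction, 11.1% of shared features were called higher (6.67% of all features) and 5.23% lower (9.71% of all features). Calls of at least 2-fold were 59 (4.47%, against 1.19% of all features), of which 58 were higher (4.40%, against 1.05%) and 1 lower. The higher ones include 11 linked strings around EG622744, so they are not independent of each other. They also include strings whose mixed WT arrays all lay under the filter signal, some of which passed the filter only through their Bmpr1a-/- arrays (both described below). The median log2 change of shared features was -0.01, against -0.02 in single-symbol genes. The 147 higher strings came from 92 linked groups, and the 69 lower strings from 63. By kind, 59 predicted-only strings were higher and 6 lower, 59 and 45 of the named genes with predicted copies, 22 and 6 of the paralogs, and 5 and 12 of the other named strings. In bulk RNA, more cells of a type and more RNA per cell cannot be told apart.

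Grown separately, Bmpr1a-/- cells were called higher than WT cells for 102 shared features and lower for 40 (10.8%, against 11.1% of all features tested). Higher calls were 7.73% of shared features and 5.09% of all features, and lower calls 3.03% and 6.02%. At least 2-fold higher were 47 (3.56%, against 0.639% of all features), the 11 linked strings around EG622744 among them. These 47 also include strings that passed the filter only through their Bmpr1a-/- arrays, such as LOC100042776/BB287469. The separate and the mixed comparison share no array, but they are not independent. Both compare the same lines, and the fit takes the spread of each feature from all groups together. The comparisons had 115 called features in common, which is 81.0% of the separate and 53.2% of the mixed calls. Of these, 89 were higher and 26 lower in both. The overlap was not worked out for single-symbol genes, so it cannot be read as a trait of shared features. By signal, among the 20% of features with the lowest signal, 8.6% of shared features were called between mixed cells against 2.2% of single-symbol genes, and among the 20% with the highest signal 17.2% against 24.4%. Shared and single-symbol features had a like spread between arrays, with a median residual SD of 0.11 each on the log2 scale.

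Among 15 features of families known from the 2-cell embryo, 14 were higher in mixed Bmpr1a-/- than in mixed WT cells and 13 in separate ones, with none lower, and their median log2 differences were 1.03 and 0.78. The 15 strings form 10 linked groups. Called in both comparisons, Dub1/LOC100046861 had every WT array under the filter signal. It passed the filter only through its Bmpr1a-/- arrays, so its direction is no evidence. With WT arrays set to that signal, Bmpr1a-/- cells were at least 1.81-fold higher in mixed and at least 1.28-fold higher in separate culture. The list also takes in the strings that name Eif1a, a translation initiation factor, which are described below. It was drawn up with earlier results of these data known, so its direction is no independent evidence. OTTMUSG00000010432/Pramel4/Pramel5, whose mean signal of 26.02 lay near the filter, was called in neither comparison, and Dux/4933403O03Rik/EG664783 was not called in separate cells (0.26, adjusted p = 0.066).

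Zscan4 encodes zinc finger proteins of the 2-cell embryo linked to telomere upkeep. The string Zscan4f/Zscan4d/Gm397 had signals of 2738, 3274 and 2317 in the mixed Bmpr1a-/- arrays, 1600, 1459 and 1266 in the separate Bmpr1a-/- arrays, 89.8, 49.5 and 80.5 in the mixed WT arrays and 164, 55.7 and 75.7 in the separate WT arrays. The lowest Bmpr1a-/- array lay far above the highest WT array. The log2 difference was 5.28 ± 0.32 in mixed cells (38.7-fold, adjusted p = 9.1e-07) and 4.02 ± 0.32 in separate cells (16.2-fold, adjusted p = 2.4e-05; SE, n = 3 arrays a group), and its 3 probe sets gave 5.19 to 5.40 in mixed cells.

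Obox4 belongs to the oocyte-specific homeobox family. Its string, joined to 2 predicted genes, had signals of 577, 661 and 479 in the mixed Bmpr1a-/- arrays, 334, 222 and 228 in the separate Bmpr1a-/- arrays, 26.3, 27.8 and 29.9 in the mixed WT arrays and 37.7, 30.3 and 26.8 in the separate WT arrays. The WT arrays lay near the filter signal of 25.3, and the part of the array's floor in the fold was not tested. The difference was 4.34 ± 0.17 in mixed cells (adjusted p = 1.4e-08) and 3.04 ± 0.17 in separate cells (adjusted p = 1.1e-06). Tdpoz1/EG668346/EG668359 and Tdpoz2/EG436563, of a family with TRAF and POZ domains, differed by 1.53 (adjusted p = 2.8e-05) and 0.89 (adjusted p = 0.00023) in mixed cells. Dub2a/Dub1/EG625530, now Usp17l genes for deubiquitinating enzymes, had 139.6, 171 and 113 in the mixed Bmpr1a-/- arrays, 99.8, 103 and 67.6 in the separate Bmpr1a-/- arrays, 32.9, 34.8 and 35.8 in the mixed WT arrays and 33.7, 32.2 and 34.1 in the separate WT arrays, a difference of 2.01 ± 0.16 in mixed cells (adjusted p = 5.3e-06).

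Dux, the homeobox activator of these genes, gave a smaller difference. Its string Dux/EG664783/4933403O03Rik had signals of 72.2, 73.1 and 69.3 in the mixed Bmpr1a-/- arrays, 59.2, 50.6 and 59.8 in the separate Bmpr1a-/- arrays, 43.4, 45.1 and 41.1 in the mixed WT arrays and 44.99, 42.99 and 47.5 in the separate WT arrays. The genotypes did not overlap, and the difference was 0.73 ± 0.08 in mixed cells (adjusted p = 5.5e-05) and 0.32 ± 0.08 in separate cells (adjusted p = 0.018). The separate call was lost without replicate 2 of separate WT, or replicate 1 or 3 of separate Bmpr1a-/- cells (adjusted p up to 0.079).

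Another set of strings is tied to the translation initiation factor Eif1a through a shared symbol. Those that name Eif1a itself are already counted among the 15 features of 2-cell embryo families. EG435337 (now Gm5662) stands in 3 strings with Eif1a and in 1 with LOC100039042 (now Gm2016). The pair EG435337/LOC100039042 had signals of 384, 280.5 and 224 in the mixed Bmpr1a-/- arrays, 126, 110.5 and 125 in the separate Bmpr1a-/- arrays, 25.1, 20.6 and 21.3 in the mixed WT arrays and 28.6, 21.97 and 23.2 in the separate WT arrays, a fitted mixed difference of 3.70 ± 0.16 (adjusted p = 5.8e-08). LOC100042776/BB287469, whose promoters are printed above, had 274, 264 and 223 in the mixed Bmpr1a-/- arrays, 112, 108 and 85.01 in the separate Bmpr1a-/- arrays, 22.96, 20.9 and 24.3 in the mixed WT arrays and 24.99, 19.9 and 22.1 in the separate WT arrays. Its fitted mixed difference was 3.48 ± 0.12 (adjusted p = 5.0e-09). All 6 WT arrays of LOC100042776/BB287469 and the mixed WT arrays of EG435337/LOC100039042 lay below the filter signal, so both passed the filter only through their Bmpr1a-/- arrays. With WT arrays set to the filter signal, mixed Bmpr1a-/- cells were at least 9.97-fold higher for LOC100042776/BB287469 and at least 11.4-fold higher for EG435337/LOC100039042. Both pairs were higher in every Bmpr1a-/- array than in every WT array.

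**Figure D1:**
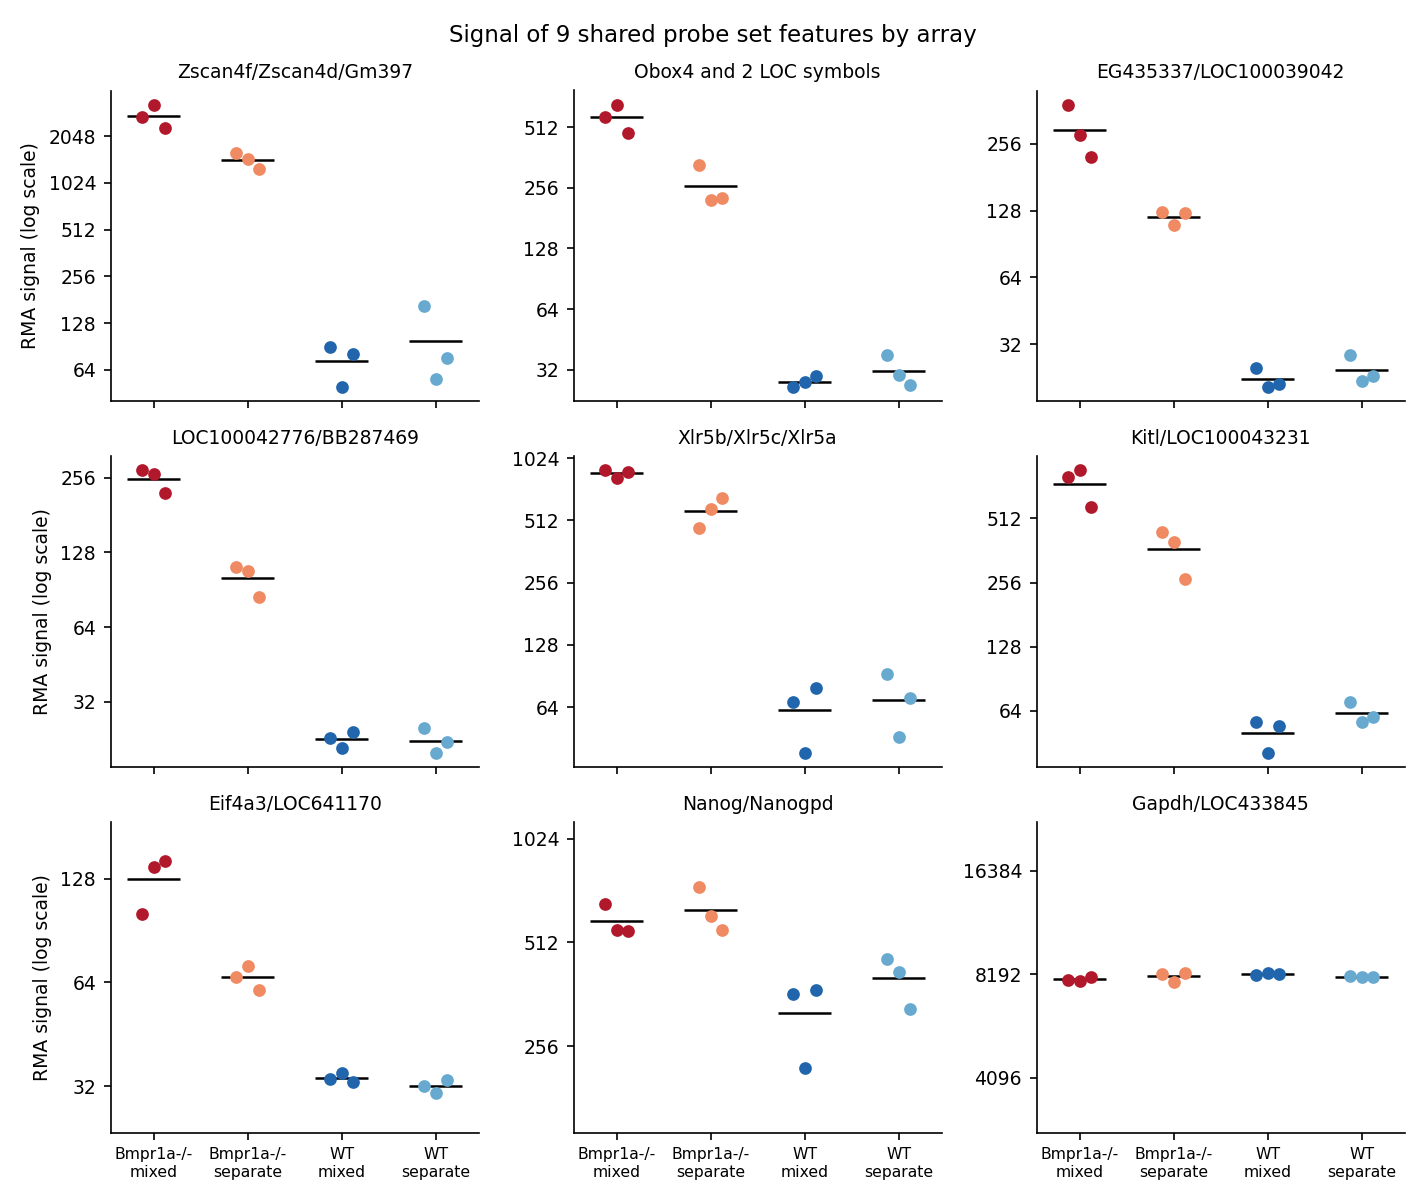
Signal (linear scale as deposited, log axis) of 9 shared features in each of the 12 arrays. Points are arrays and the line is the group mean, with mixed and separate Bmpr1a-/- cells left of mixed and separate WT cells. Zscan4 signals were 1266 to 3274 in Bmpr1a-/- and 49.5 to 163.8 in WT arrays, while Gapdh signals were 7796 to 8247 and 8019 to 8231.

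The X-linked lymphocyte-regulated (Xlr) genes exist as tandem copies on the X chromosome. Xlr5b/Xlr5c/Xlr5a had signals of 892, 822 and 875 in the mixed Bmpr1a-/- arrays, 468, 581 and 653 in the separate Bmpr1a-/- arrays, 68.02, 38.4 and 78.96 in the mixed WT arrays and 92.5, 45.6 and 70.5 in the separate WT arrays, all Bmpr1a-/- arrays far above all WT arrays. Its difference was 3.87 ± 0.26 in mixed cells (adjusted p = 1.5e-06) and 3.07 ± 0.26 in separate cells (adjusted p = 3.7e-05). Xlr4c/Xlr4b/Xlr4a with 3 more symbols had 347, 297 and 306 in the mixed Bmpr1a-/- arrays, 263, 285 and 253 in the separate Bmpr1a-/- arrays, 97.9, 55.9 and 83.4 in the mixed WT arrays and 96.8, 60.9 and 78.4 in the separate WT arrays, a difference of 2.04 ± 0.19 in mixed and 1.79 ± 0.19 in separate cells. The 3 Xlr3 strings differed by 1.84 to 1.98 in mixed cells, and Mageb16/2410003J06Rik, of the melanoma antigen family, by 1.70. Of 28 features of X- and Y-linked multicopy families in 8 linked groups, 14 were called higher in mixed and 9 in separate cells and none lower, with medians of 0.28 and 0.13. The 7 Rhox homeobox strings were not called, with mixed differences of -0.06 to 0.23 and mean signals of 25.9 to 32.0.

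Of the 75 shared features located on the X chromosome, 23 were called higher in mixed Bmpr1a-/- cells (30.7%) and 1 was called lower, and 21 and 3 in separate cells. Among 578 single-symbol genes on the X chromosome, 148 were called higher (25.6%) and 58 lower in mixed cells.

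The linked group around EG622744 on chromosome 5 was singled out after its values were seen. It holds 11 strings from 14 probe sets and 12 symbols, some now called Pramel genes, leucine-rich repeat genes of the Prame-like family. All 11 were called higher in both genotype comparisons, with fitted log2 differences of 2.48 to 3.35 in mixed cells and 1.76 to 2.44 in separate cells. In 6 of the 11, every mixed WT array lay under the filter signal, and with those arrays set to it, mixed Bmpr1a-/- cells were at least 5.11-fold to at least 9.11-fold higher. In 2 of the 11, every separate WT array lay under it as well. These 2 passed the filter only through their Bmpr1a-/- arrays, so their direction is no evidence. With WT arrays set to the filter signal, they were at least 3.13-fold and at least 3.20-fold higher in separate Bmpr1a-/- cells. The median signals over the strings were 174.1, 279.9 and 148.5 in mixed Bmpr1a-/-, 128.5, 130.9 and 84.3 in separate Bmpr1a-/-, 25.3, 24.1 and 25.2 in mixed WT and 29.0, 24.1 and 26.3 in separate WT cells. The strings share symbols, so they are not 11 independent observations.

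Other predicted strings were also higher in Bmpr1a-/- cells, and these were named after their values were seen. EG638046/EG668774/EG666160 had 548, 454 and 306 in the mixed Bmpr1a-/- arrays, 238, 176 and 150.2 in the separate Bmpr1a-/- arrays, 33.5, 27.1 and 27.4 in the mixed WT arrays and 31.8, 29.04 and 27.2 in the separate WT arrays, a mixed difference of 3.86 ± 0.20 (adjusted p = 1.9e-07), and its 5 probe sets gave 3.85 to 3.87. RP23-58H5.10 with 7 more symbols, Pramel12 among them, had 216, 182 and 119 in the mixed Bmpr1a-/- arrays, 101, 81.9 and 65.6 in the separate Bmpr1a-/- arrays, 28.1, 27.1 and 27.1 in the mixed WT arrays and 28.7, 25.4 and 26.7 in the separate WT arrays, a difference of 2.61 ± 0.19 (adjusted p = 2.3e-06). A430089I19Rik/BC061212/EG666203/LOC100041042, whose first symbol is now Pramel39, had 135, 129 and 90.98 in the mixed Bmpr1a-/- arrays, 78.7, 72.3 and 61.6 in the separate Bmpr1a-/- arrays, 29.1, 26.6 and 28.01 in the mixed WT arrays and 27.6, 26.3 and 28.9 in the separate WT arrays (2.07 ± 0.13, adjusted p = 1.0e-06). In all 3, the WT arrays lay close to the filter.

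The list of pluripotency genes took in any numbered Klf gene, and 3 features matched it, Nanog/Nanogpd and strings of Klf9 and Klf3. All 3 were called higher in separate Bmpr1a-/- cells and 2 in mixed ones. Klf9 and Klf3 matched by name only, so this is no result about pluripotency factors as a family. Nanog/Nanogpd, the pluripotency factor with its pseudogene, had signals of 662, 555 and 551 in the mixed Bmpr1a-/- arrays, 742, 609.6 and 555 in the separate Bmpr1a-/- arrays, 364, 221 and 373 in the mixed WT arrays and 458, 421 and 329 in the separate WT arrays. The groups of one culture did not overlap, with 0.92 ± 0.19 in mixed (adjusted p = 0.0054) and 0.66 ± 0.19 in separate cells (adjusted p = 0.042). The separate call held in 6 of the 12 fits that each left out 1 array (adjusted p up to 0.14), and was lost without replicate 2 or 3 of separate WT, 2 or 3 of mixed Bmpr1a-/-, or 1 or 2 of separate Bmpr1a-/- cells. Klf9/2310051E17Rik, a Krüppel-like factor (both symbols now Klf9), had 446, 442 and 402 in the mixed Bmpr1a-/- arrays, 321, 323 and 340.1 in the separate Bmpr1a-/- arrays, 214, 217 and 201 in the mixed WT arrays and 236, 221 and 209.5 in the separate WT arrays, a difference of 1.03 ± 0.07 in mixed cells (adjusted p = 1.5e-06). Klf3/LOC100046855 differed by 0.58 in separate cells (adjusted p = 0.011) and 0.25 in mixed cells (adjusted p = 0.23).

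The shared features lower in Bmpr1a-/- cells were mostly named genes joined to a predicted copy, and their differences were smaller. Ramp3/AB182283, a partner of calcitonin-family receptors, had 85.5, 56.5 and 68.6 in the mixed Bmpr1a-/- arrays, 111, 73.3 and 78.5 in the separate Bmpr1a-/- arrays, 163, 127 and 130.5 in the mixed WT arrays and 148, 184 and 112 in the separate WT arrays. Its difference was -1.01 ± 0.20 in mixed cells (adjusted p = 0.0046) and -0.75 ± 0.20 in separate cells (adjusted p = 0.032). Hmgcs1/LOC100040592, an enzyme of cholesterol synthesis, had 1027, 834 and 892 in the mixed Bmpr1a-/- arrays, 1293, 1011 and 996 in the separate Bmpr1a-/- arrays, 1681, 1891 and 1649 in the mixed WT arrays and 1605, 2027 and 1741 in the separate WT arrays, a difference of -0.93 ± 0.12 in mixed (adjusted p = 2.3e-04) and -0.71 ± 0.12 in separate cells (adjusted p = 0.0028). In both genes every Bmpr1a-/- array lay below every WT array. Ramp3/AB182283 lost its separate call without replicate 1 or 2 of separate WT, or 2 or 3 of separate Bmpr1a-/- cells (adjusted p up to 0.14).

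Cbln1/LOC100046314, a synapse organiser, had 37.4, 34.7 and 37.4 in separate Bmpr1a-/- cells against 46.6, 100.1 and 116 in separate WT cells (-1.16 ± 0.25, adjusted p = 0.011), so 1 WT array lay well below the other 2. The call was lost without replicate 2 of separate WT cells (adjusted p = 0.056). Rpl22l1/LOC100042049, a paralog of a ribosomal protein, differed by -0.68 ± 0.15 in mixed and -0.72 ± 0.15 in separate cells (adjusted p = 0.0092 and adjusted p = 0.01). Armcx3/LOC100044266 differed by -0.85 ± 0.14 in separate cells (adjusted p = 0.0025) and -0.38 ± 0.14 in mixed cells (adjusted p = 0.089). Cdh2/LOC100044363, the adhesion protein N-cadherin, differed by -0.79 ± 0.17 in mixed cells (adjusted p = 0.0065) and -0.56 ± 0.17 in separate cells (adjusted p = 0.051).

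Several of the lower features lie on chromosome 11. It holds 89 of the 1265 located shared features (7.0%), and 27 of the 69 located lower calls in mixed cells (39.1%) and 18 of 39 in separate cells (46.2%). The median log2 change of shared features on chromosome 11 was -0.16 in mixed and -0.15 in separate cells, against -0.01 and 0.02 elsewhere. Single-symbol genes on chromosome 11 had medians of -0.16 in both comparisons, so like values were seen in genes with 1 symbol. Named examples are Spag7/LOC100048812 (-0.68 in mixed and -0.65 in separate cells), Nme1/LOC100046344, a nucleoside diphosphate kinase (-0.77 in mixed cells, adjusted p = 0.0015), Dullard/LOC100048221, a phosphatase now called Ctdnep1 (-0.69), and Mrpl27/EG622268, of the mitochondrial ribosome (-0.68). 

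**Figure D2:**
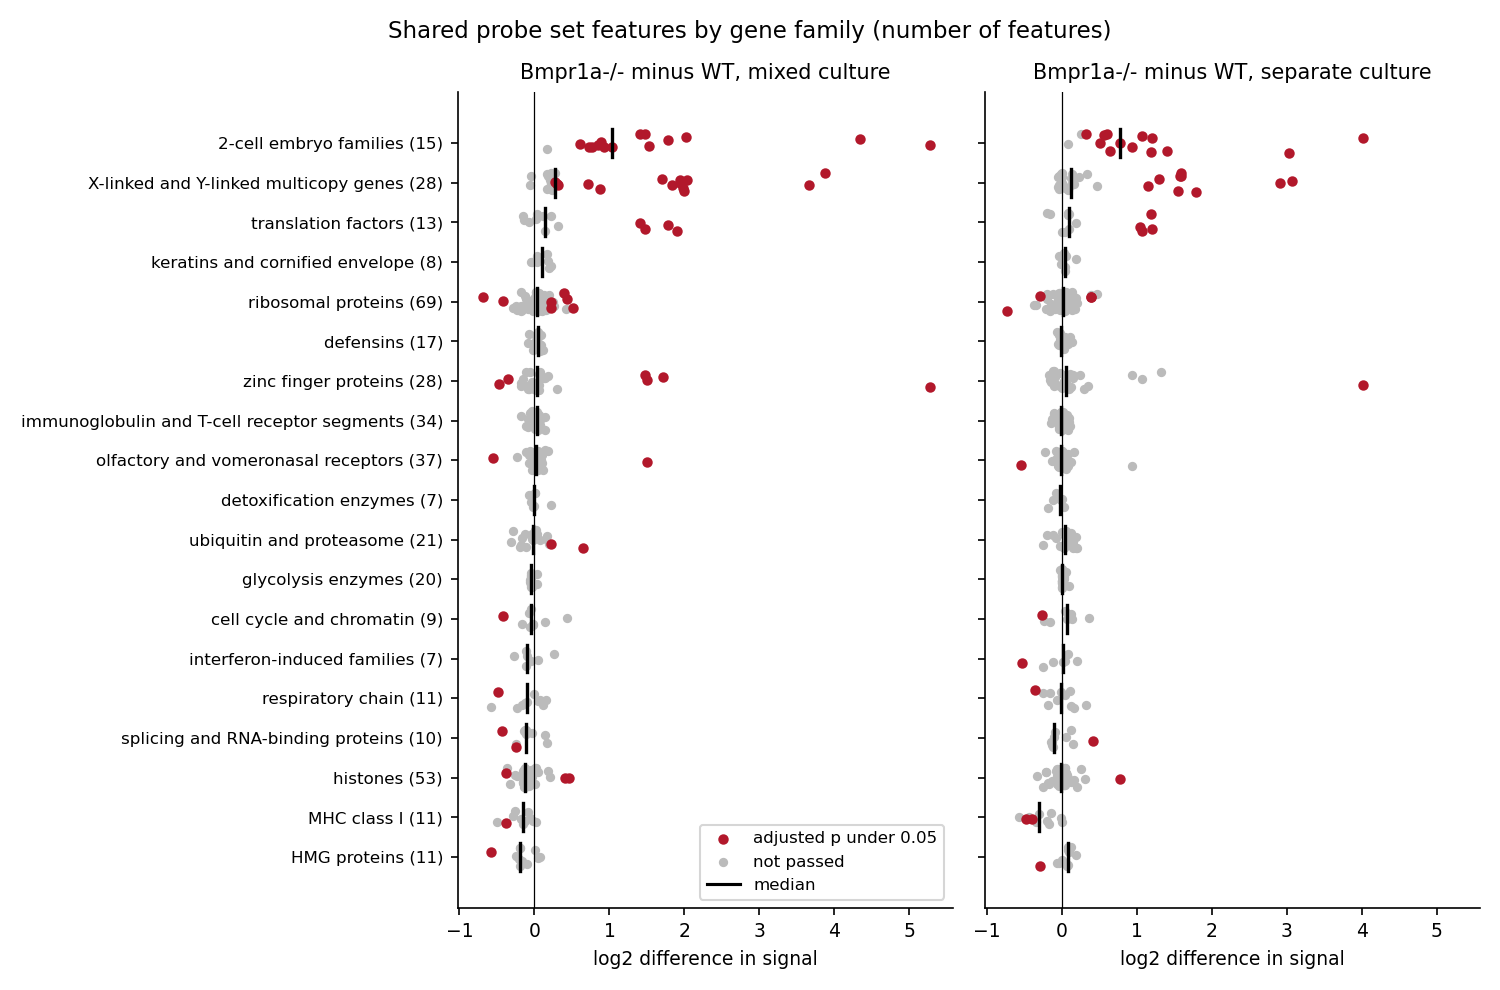
Log2 difference of Bmpr1a-/- minus WT cells for shared features of each family with at least 5 features, mixed culture left and separate culture right. Points are features, red ones passed at an adjusted p under 0.05, and the black bar is the family median. The families of the 2-cell embryo had medians of 1.03 and 0.78, and 14 and 13 of 15 features passed. Among these, Dub1/LOC100046861 passed the level filter only through its Bmpr1a-/- arrays.

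Families of housekeeping genes with many pseudogenes follow, to be read against 16.4% of all features called in mixed and 11.1% in separate cells. None of 20 glycolysis features was called in any comparison, with medians of -0.05 in mixed and 0.01 in separate cells. These 20 strings form only 2 linked groups, so they do not stand for the glycolysis enzymes as a whole. Gapdh, the glycolytic dehydrogenase, stands in a linked group of 19 strings and 32 symbols on 10 chromosomes, with mixed differences of -0.06 to -0.03. Gapdh/LOC433845 had 7870, 7841 and 8040 in the mixed Bmpr1a-/- arrays, 8181, 7796 and 8247 in the separate Bmpr1a-/- arrays, 8154, 8231 and 8201 in the mixed WT arrays and 8074, 8019 and 8030 in the separate WT arrays. The separate groups overlapped, and the mixed Bmpr1a-/- arrays lay just below the mixed WT arrays. Of 69 ribosomal protein features, 5 were higher and 2 lower in mixed cells (median 0.04), and 2 and 2 in separate cells (median 0.02). Of 53 histone features in 6 linked groups, 2 were higher and 1 lower in mixed cells (median -0.13), and 1 was higher in separate cells (median -0.01). The histone call in both cultures was H2afj/LOC632401, a variant of histone H2A, at 0.41 ± 0.09 in mixed (adjusted p = 0.009) and 0.78 ± 0.09 in separate cells (adjusted p = 2.9e-04).

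Families of regulators and of the cell's core machinery held calls in both directions. Of 28 zinc finger features, 4 were higher and 2 lower in mixed cells (median 0.04). Besides Zscan4, Zfp640/C330022B21Rik/ENSMUSG00000071302 was higher by 1.72 ± 0.41 (adjusted p = 0.012), a call lost without replicate 2 or 3 of mixed WT cells (adjusted p up to 0.056). Of 21 ubiquitin and proteasome features 2 were higher in mixed cells (median -0.03), among them Rnf213/LOC672511, a large ubiquitin ligase (0.64 ± 0.14, adjusted p = 0.0066). Of 11 respiratory chain features 1 was lower in both cultures, Atp5h/LOC100039281/LOC100044492, a subunit of ATP synthase (-0.49 ± 0.10 in mixed and -0.35 ± 0.10 in separate cells). The separate call of Atp5h/LOC100039281/LOC100044492 held in 3 of 12 fits without 1 array (adjusted p up to 0.18), so 9 arrays, WT and Bmpr1a-/-, each changed it. Of 9 cell cycle and chromatin features 1 was lower in both, Cbx1/LOC100047028, a heterochromatin protein (-0.41 ± 0.06 in mixed and -0.26 ± 0.06 in separate cells). Cbx1/LOC100047028 lost the separate call without replicate 2 of separate WT or separate Bmpr1a-/- cells (adjusted p up to 0.076). Snrpn/Snurf, a bicistronic imprinted transcript with a splicing protein, was lower in mixed cells (-0.43 ± 0.13, adjusted p = 0.045). Its call held in 5 of 12 fits without 1 array (adjusted p up to 0.18), and arrays of all 4 groups changed it. The 3 strings of Ppih were lower in mixed Bmpr1a-/- cells (-0.27 to -0.25), each call being lost without replicate 2 or 3 of mixed WT or of mixed Bmpr1a-/- cells, among others (adjusted p up to 0.17 for Ppih/LOC629952/LOC666411).

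Of 11 features with MHC symbols, which present peptides to T cells, 1 was lower in mixed and 2 in separate Bmpr1a-/- cells and none was higher, with medians of -0.15 and -0.30. The class I string H2-Q8/H2-Q7/H2-Q6 was lower in both, at -0.38 in mixed (adjusted p = 0.027) and -0.39 in separate cells (adjusted p = 0.032), and H2-D1/H2-L was lower in separate cells at -0.48 ± 0.11 (adjusted p = 0.018). H2-D1/H2-L had signals of 214, 206 and 184 in the mixed Bmpr1a-/- arrays, 214, 152 and 189.8 in the separate Bmpr1a-/- arrays, 231, 269.6 and 224 in the mixed WT arrays and 252, 259 and 254 in the separate WT arrays. Its call was lost without replicate 2 of separate Bmpr1a-/- or separate WT cells (adjusted p up to 0.065). H2-Q8/H2-Q7/H2-Q6 lost the mixed call without replicate 2 or 3 of mixed Bmpr1a-/- or any array of mixed WT cells (adjusted p up to 0.12), and the separate call without replicate 2 of separate Bmpr1a-/-, or 1 or 2 of separate WT cells (adjusted p up to 0.13). The list also holds the class II strings of H2-Ab1 and H2-DMb, neither called. The heat shock pair Hspa1b/Hspa1a was higher in separate cells by 0.50 ± 0.10 (adjusted p = 0.0061), with 0.26 ± 0.10 in mixed cells (adjusted p = 0.091, and adjusted p = 0.048 with the replicate block, which pairs these samples). No feature was called among 34 immunoglobulin and T-cell receptor segments, 17 defensins, 8 keratins and 7 detoxification enzymes. Their median signals were 40.05, 29.4, 65.2 and 27.76, in the order named, against a filter signal of 25.3. Whether features at such signals can register a change was not tested. Of 37 olfactory and vomeronasal receptor features, 1 was higher and 1 lower in mixed cells, and the lower one was Stard3/Olfr869, which joins a receptor gene to a lipid transfer protein (-0.56, adjusted p = 0.024), lost without replicate 2 or 3 of mixed Bmpr1a-/-, or 1 or 2 of mixed WT cells (adjusted p up to 0.086).

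Few shared features were called between mixed and separate culture, and 24 of 26 calls in Bmpr1a-/- cells were higher in mixed cells. Mixed cells were sorted, and since sorting of the separate cells is not stated, mixing and sorting cannot be told apart. Between mixed and separate Bmpr1a-/- cells, 24 shared features rose and 2 fell (1.97%, against 1.59% of all features tested). Rises were 1.82% of shared features and 0.845% of all features, and falls 0.152% and 0.744%. At least 2-fold rises were 11 (0.834%, against 0.0897% of all features), beside 6 among 17626 single-symbol genes, and falls of that size were 0 (0.0686% of all features). The 11 include LOC100042776/BB287469 and EG435337/LOC100039042, which passed the filter only through their Bmpr1a-/- arrays. The 24 strings form 18 linked groups, and 17 hold predicted genes only. With the replicate number as a block, which pairs these samples, 69 shared features were called, all 26 among them. Without replicate 2 of the mixed Bmpr1a-/- group only 5 were called, and without replicate 2 of the separate Bmpr1a-/- group only 7.

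The rise with the smallest p was LOC100042776/BB287469, with 274, 264 and 223 in mixed against 112, 108 and 85.01 in separate Bmpr1a-/- cells. Every mixed array lay above every separate array, and the change was 1.33 ± 0.12 (2.51-fold, adjusted p = 0.0014). EG435337/LOC100039042 rose by 1.26 ± 0.16 (adjusted p = 0.0053), and the Obox4 string by 1.14 ± 0.17 (adjusted p = 0.0066). LOC100039226/LOC100045274 had 201, 179.7 and 113 in mixed against 83.99, 59.5 and 61.9 in separate Bmpr1a-/- cells (1.24 ± 0.19, adjusted p = 0.0087). 4933405O20Rik/LOC668776, annotated in the files by likeness to retinoblastoma binding protein 6, had 221, 213 and 188 against 122, 108 and 82.6 (1.01 ± 0.14, adjusted p = 0.0062). Of the 26 called features, 5 kept an adjusted p under 0.05 when any 1 of the 12 arrays was left out: LOC100042776/BB287469, EG435337/LOC100039042, Eif4a3/LOC641170, the Obox4 string and 4933405O20Rik/LOC668776.

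Further rises included Klf9/2310051E17Rik (0.39 ± 0.07, adjusted p = 0.019), Dux/EG664783/4933403O03Rik (0.34 ± 0.08, adjusted p = 0.047) and Tmeff1/LOC100045217, a transmembrane protein with follistatin-like domains (0.39 ± 0.09, adjusted p = 0.048). Tmeff1 was lower in separate Bmpr1a-/- than in separate WT cells (-0.34 ± 0.09, adjusted p = 0.024), a call lost without any 1 array of separate Bmpr1a-/- or replicate 2 of separate WT cells (adjusted p up to 0.11). Its signals were 753, 705 and 820.4 in the mixed Bmpr1a-/- arrays, 563, 583 and 592 in the separate Bmpr1a-/- arrays, 620.0, 631 and 707 in the mixed WT arrays and 687, 825 and 698 in the separate WT arrays. Klf9 lost its call without replicate 2 of mixed Bmpr1a-/-, or 1 or 2 of separate Bmpr1a-/- cells (adjusted p up to 0.087). Dux and Tmeff1 held theirs in only 2 and 2 of 12 fits without 1 array (adjusted p up to 0.17 and 0.18), and arrays of all 4 groups changed them. Zscan4f/Zscan4d/Gm397 did not pass, at 0.94 ± 0.32 (adjusted p = 0.18, and adjusted p = 0.062 with the replicate block), and all its mixed arrays lay above its separate arrays. Of the 15 features of 2-cell embryo families, 2 rose and none fell, with a median of 0.47.

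The 2 falls were of named genes. Cxx1b/Cxx1a/LOC100044569, X-linked genes derived from retrotransposons and now called Rtl8b and Rtl8a, had 179, 162 and 137 in mixed against 284, 336 and 230.0 in separate Bmpr1a-/- cells (-0.82 ± 0.17, adjusted p = 0.032). The WT cells had 192, 188 and 172 mixed and 178, 242 and 152 separate, so the separate Bmpr1a-/- arrays were the high ones apart from 1 WT array. Ppih/EG665989/LOC629952/LOC666411, a cyclophilin of the spliceosome, had 794, 736 and 743 against 915, 964 and 906 (-0.29 ± 0.07, adjusted p = 0.049). Cxx1b lost its call without replicate 2 or 3 of mixed, or 1 or 2 of separate Bmpr1a-/- cells (adjusted p up to 0.14), and Ppih held it in 2 of 12 fits without 1 array (adjusted p up to 0.19). Histone features had a median change of -0.17 with none called.

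**Figure D3:**
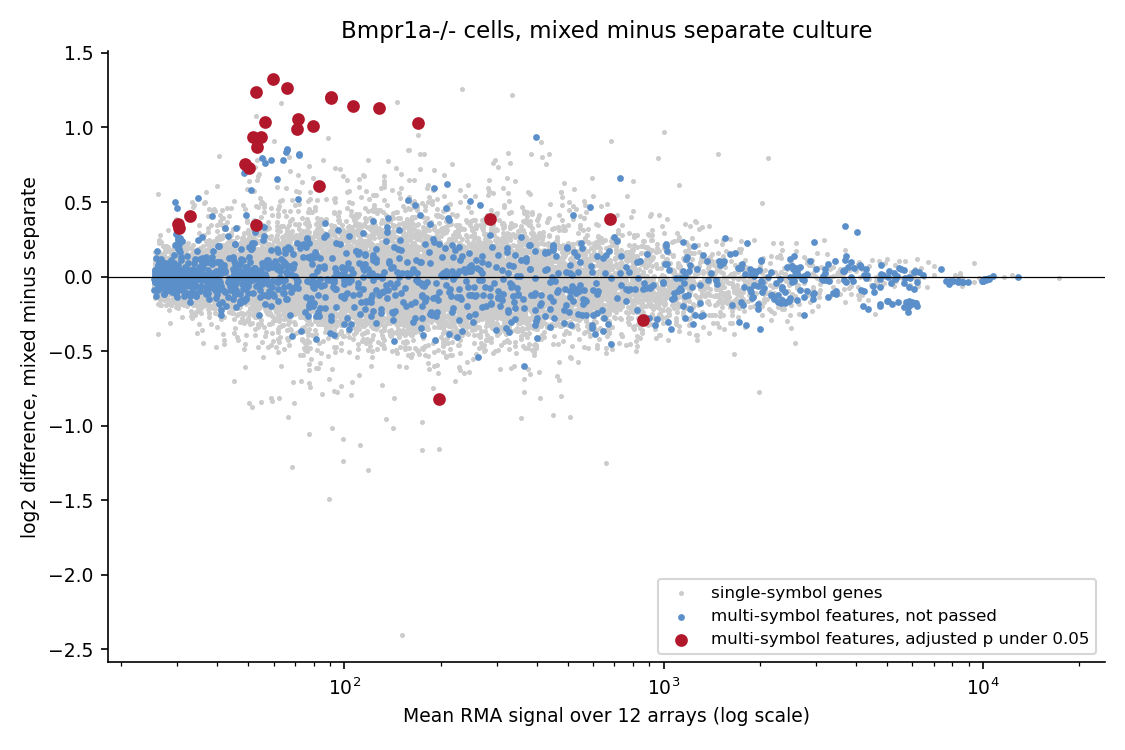
Log2 change of mixed minus separate Bmpr1a-/- cells (vertical) against mean signal over 12 arrays (horizontal, log scale). Grey points are single-symbol genes, blue points shared features and red points the 26 shared features called. The 24 rises lie mostly at low to middle signal, and 2 shared features fell.

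In WT cells, no shared feature was called between mixed and separate culture (0, against 0.0% of all features tested by limma), and 28 (2.12%) had an unadjusted p under 0.05, against 2.94% of single-symbol genes. The 5 named features with the smallest p were Acaa1b/Acaa1a (0.44), Nudt11/Nudt10 (0.49), Ntn1/LOC672215 (-0.36), Meis3/LOC100046899 (-0.22) and Fbxw10/Trim16 (-0.17), each at an adjusted p of 1. The difference between the genotypes in the change between mixed and separate culture, tested as an interaction, was called for 7 shared features, all with the change in Bmpr1a-/- cells above that in WT cells (0.531%, against 0.639% of all features in either direction and 0.301% in this one).

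For 525 pairs, a shared feature could be set against a probe set that carries only one of its symbols. The pairs join 432 shared features to 351 genes, and several pairs have a gene or a feature in common. The difference of the 2 log2 changes was tested over the 12 arrays, with p-values adjusted over the 525 pairs. It was called for 31 pairs between mixed Bmpr1a-/- and mixed WT cells (5.90%), with the shared feature higher in 22 and lower in 9, and for 22 pairs in separate cells (4.19%), 18 higher and 4 lower. The median size of the difference was 0.09 in both.

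The largest difference among the 525 pairs in mixed cells was that of Kitl. Kitl is the ligand of the KIT receptor. The string Kitl/LOC100043231 had 802, 859.6 and 576 in the mixed Bmpr1a-/- arrays, 441, 397 and 266 in the separate Bmpr1a-/- arrays, 56.6, 40.7 and 54.4 in the mixed WT arrays and 70.3, 57.1 and 60.0 in the separate WT arrays, a difference of 3.88 ± 0.20 in mixed cells (adjusted p = 1.9e-07). Its second symbol, now Gm4303, is annotated in the files by likeness to an RNA export factor binding protein, and the RefSeq promoters of Kitl and Gm4303 matched at 30.5% of 167 bases. The probe set of Kitl alone had 38.3, 46.1 and 37.9 in mixed Bmpr1a-/- cells and 35.6, 52.4 and 35.4 in separate ones, against 38.05, 38.5 and 36.6 in mixed and 34.3, 40.3 and 35.7 in separate WT cells. These groups overlap, with a mixed difference of 0.10. The probe set of Kitl alone had low signals in all arrays, 34.3 to 52.4, and whether it can register a change was not tested. Shared minus own was 3.77 ± 0.23 (adjusted p = 4.9e-06) in mixed and 2.39 ± 0.23 (adjusted p = 3.7e-04) in separate cells.

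Eif4a3 is an RNA helicase of the exon junction complex. Eif4a3/LOC641170 had 101, 139 and 144 in the mixed Bmpr1a-/- arrays, 66.3, 71.4 and 60.8 in the separate Bmpr1a-/- arrays, 33.6, 34.8 and 32.9 in the mixed WT arrays and 32.01, 30.5 and 33.3 in the separate WT arrays, with mixed Bmpr1a-/- arrays highest and both WT groups lowest. The probe set of Eif4a3 alone had 1133, 1247 and 1037 in mixed Bmpr1a-/- cells and 1278, 1151 and 1089 in separate ones, against 1368, 1337 and 1310 in mixed and 1253, 1436 and 1236 in separate WT cells. The shared feature was 1.90 ± 0.11 higher in mixed Bmpr1a-/- cells (adjusted p = 9.1e-07), while the single-symbol probe set differed by -0.24 (adjusted p = 0.089). Shared minus own was 2.14 ± 0.15 (adjusted p = 7.8e-06), and 0.98 ± 0.15 (adjusted p = 0.02) between mixed and separate Bmpr1a-/- cells.

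Eif1a is the translation initiation factor named above. The longest of its strings, EG266459/Eif1a/EG435337 with 3 more symbols, had 1750, 1611 and 1285 in the mixed Bmpr1a-/- arrays, 1005, 949 and 964 in the separate Bmpr1a-/- arrays, 523, 367 and 472 in the mixed WT arrays and 521, 382 and 374 in the separate WT arrays. The probe set of Eif1a alone had 274, 216 and 236 in mixed Bmpr1a-/- cells and 267, 259 and 276 in separate ones, against 291, 266 and 259.5 in mixed and 274, 259 and 253 in separate WT cells. These groups overlap. The shared feature differed by 1.77 ± 0.15 in mixed cells (adjusted p = 1.2e-05) and the single-symbol probe set by -0.17 (adjusted p = 0.21). Shared minus own was 1.95 ± 0.15 (adjusted p = 1.4e-05).

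The longer RP23-58H5.10 string against Pramel12 (2.68 ± 0.16, adjusted p = 4.9e-06) also had the shared feature higher, as did Tdpoz1/EG668346/EG668359 against Tdpoz1 (1.34 ± 0.19, adjusted p = 0.0015). The single-symbol probe sets had low signals in all arrays, 44.8 to 54.0 for Pramel12 and 26.6 to 33.8 for Tdpoz1. Whether they can register a change was not tested. 3110003A17Rik/Heca differed from Abracl, the current name of its first symbol, by 1.15 ± 0.14 (adjusted p = 4.6e-04). In the other direction, Grhl3, a grainyhead-like factor, was 0.68 higher alone while Grhl3/LOC665334 changed by -0.11, a difference of -0.79 ± 0.11 (adjusted p = 0.0015). Nup85/Hmgb1, which joins a nuclear pore gene on chromosome 11 to a chromatin protein gene on chromosome 5, had 386, 376 and 400.5 in mixed Bmpr1a-/- cells against 587, 599 and 553 in mixed WT cells. It differed from Hmgb1 alone by -0.38 ± 0.07 (adjusted p = 0.005).

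**Figure D4:**
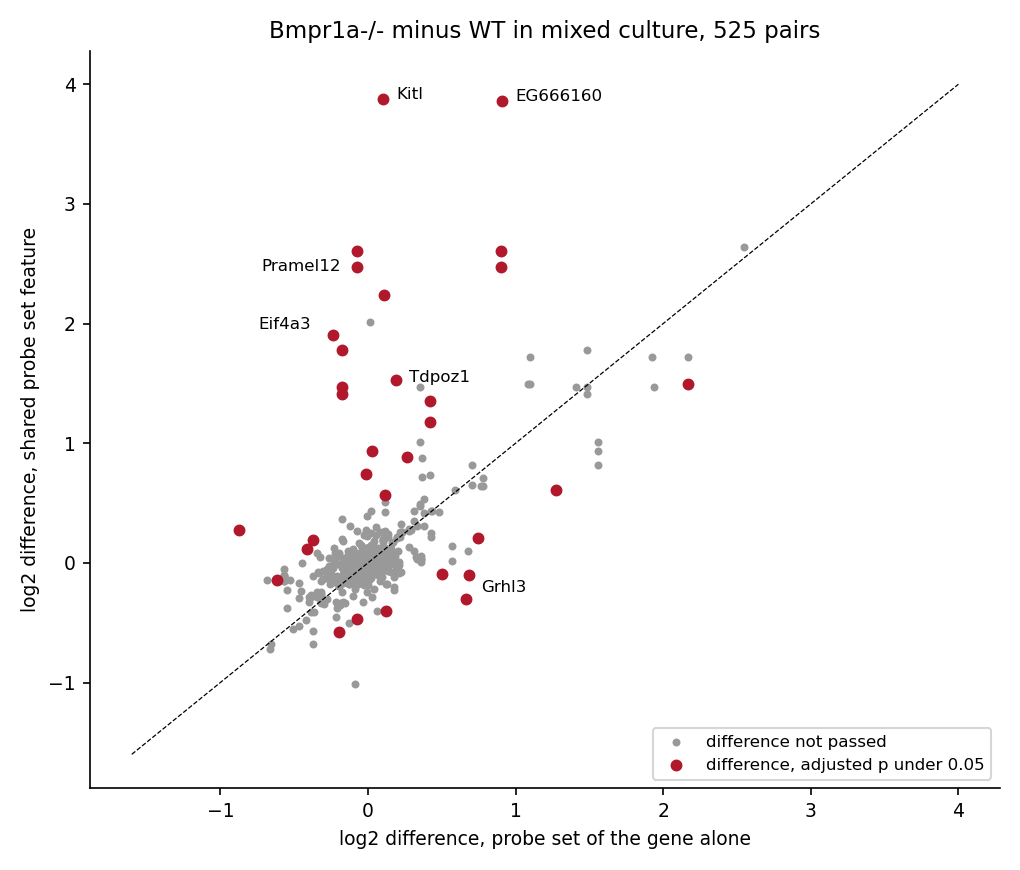
Log2 difference of mixed Bmpr1a-/- minus mixed WT cells for 525 pairs, the single-symbol probe set on the horizontal and the shared feature on the vertical axis. The dashed line marks equal changes, and red points are the 31 pairs whose difference was called. The pair of Kitl lies at 0.10 on the horizontal and 3.88 on the vertical axis, and its single-symbol probe set had low signals in all arrays.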

How the data were processed

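Total RNA of 12 samples was hybridised to Affymetrix mouse gene arrays. The authors deposited probe-set intensity values on a linear scale, and per the file headers these were background-corrected, quantile-normalized and summarised by RMA. RMA and Affymetrix Expression Console 1.2 are named in the submitters' processing notes. The authors' log2 table differed from the log2 of the intensities by a constant per probe set within 2.2e-06. No column of per-sample values was left unused.

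Intensities were taken to log2, identical symbol strings were averaged, and each single-symbol gene was represented by its probe set of highest mean signal. A linear model over the 4 groups was fitted with limma 3.58.1 (R 4.3.3) and eBayes, with p-values adjusted by Benjamini-Hochberg over 18945 features and called under 0.05. Tables were made with Python 3.11.15 and pandas 2.3.3, and the fit was tested on simulated data. The number of arrays, 3 a group, limits the precision. A symbol counted as predicted where it was a clone, LOC, EG, Gm or similar name, and families were matched by symbol patterns, so a feature can count in 2 families.

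The members and lists were chosen with earlier results of these data known. Features were named by a rule: those with at least 1 symbol not predicted, the 8 largest rises and 8 largest falls of each comparison with group ranges apart (where fewer than 3 passed, the 5 smallest p), the 2 largest changes of each family of 5 or more, and a list of fixed genes. Predicted strings outside it were named after their values were seen. Where every WT array of a group lay under the filter signal, a lower bound was added after seeing the data, with those arrays set to that signal. The sources used here do not name the array's genome build. Chromosomes and promoters come from RefSeq GRCm38.p6.

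The replicate numbers pair the mixed with the separate Bmpr1a-/- samples (correlations of deviations from the group means 0.10 to 0.38) and the mixed Bmpr1a-/- with the mixed WT samples (0.39 to 0.66), but not the mixed with the separate WT (-0.03 to 0.59) nor the 2 separate groups (-0.01 to 0.36). The file headers call them experiments. Alternatives were the replicate block, leaving out each array, other filters, normalizations, collapses, symbol rules and fits, and, chosen after seeing the data, ignoring the order of symbols.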

Additional observations from a re-analysis of the deposited data

Results flagged for a closer look

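For 7 shared features the change between mixed and separate culture differed between the genotypes by the interaction term of the limma fit, which is the change in Bmpr1a-/- cells minus the change in WT cells. In each, every mixed Bmpr1a-/- array lay above every separate one, and the change in WT cells did not pass. LOC100039226/LOC100045274 had the largest at 1.53 ± 0.27 (adjusted p = 0.027), with changes of 1.24 in Bmpr1a-/- and -0.29 in WT cells. EG435337/LOC100039042 followed at 1.40 ± 0.23 (adjusted p = 0.024). The Obox4 string had 1.31 ± 0.24 (adjusted p = 0.029), with 1.14 in Bmpr1a-/- and -0.16 in WT cells, and LOC100042776/BB287469 had 1.30 ± 0.17 (adjusted p = 0.0099). LOC100040604/LOC620963/AA684185 with 2 more symbols, annotated in the files by likeness to an elongation factor 1 homolog, had 1.21 ± 0.24 (adjusted p = 0.048), 4933405O20Rik/LOC668776 had 1.05 ± 0.20 (adjusted p = 0.039) and Eif4a3/LOC641170 had 0.85 ± 0.16 (adjusted p = 0.038). Only LOC100042776/BB287469 kept its interaction call in all 12 fits that each left out 1 array (adjusted p up to 0.034). The other 6 kept theirs in 1 to 7 of the 12 (adjusted p up to 0.14), and each lost it without replicate 2 of mixed Bmpr1a-/-, of mixed WT or of separate Bmpr1a-/- cells. The WT signals of the 7 features lay between 19.9 and 68.5, and those of 3 of the 7 reached below the filter signal of 25.3. All 6 WT arrays of LOC100042776/BB287469 and the mixed WT arrays of EG435337/LOC100039042 lay under it. Both strings passed the filter only through their Bmpr1a-/- arrays. The WT change of LOC100042776/BB287469, the call kept in all 12 fits, was thus read wholly under the filter signal. The part of the array's floor in the interaction was not tested.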

How the results depend on the processing

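The 26 shared features called between mixed and separate Bmpr1a-/- cells became 69 with the replicate block, 55 without collapse, 48 with all probe sets fitted uncollapsed, 3 with only the 2 groups compared in the fit and 2 with properly named strings only. Leaving out 1 array gave 5 to 36. The 7 interaction calls became 28 with the replicate block, 12 with trend and robust eBayes, 11 after quantile normalization again, 4 with array medians set equal, 2 with no filter and 0 with properly named strings only, and 1 to 17 without 1 array. The lowest came without replicate 2 of mixed WT, of mixed Bmpr1a-/- or of separate Bmpr1a-/- cells and the highest without replicate 3 of mixed Bmpr1a-/- cells. For Bmpr1a-/- against WT cells, the 142 calls in separate culture became 32 with properly named strings only and 200 with the replicate block, and 96 to 144 without 1 array. The 216 in mixed culture became 325 without collapse, 47 with properly named strings only and 267 with the block, and 155 to 224 without 1 array. Fewer or more features enter the counts by construction where names are restricted or strings are not collapsed; other causes were not tested. The 5 pairs called in mixed against separate Bmpr1a-/- cells were 0 to 7 without 1 array, the 0 in WT culture 0 to 2 and the 0 of the interaction 0 to 2; the pairs between genotypes were 16 to 21 and 21 to 37. WT mixed against separate culture gave 0 calls of shared features under every alternative run. Of the named features' alternatives, 8860 kept direction and side of the threshold, 117 came to pass, 352 ceased to pass and 0 reversed.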
